A study of Mus musculus with 12 samples.

Results

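The genes described here are 40 mouse genes of the extracellular matrix and of fibroblasts, chosen by name: 5 fibrillar collagen chains, 7 basement membrane genes, 4 other collagen chains, 7 glycoproteins and elastic fibre genes, 3 small leucine-rich proteoglycans, 3 crosslinking enzymes, 5 proteases and protease inhibitors, 2 fibroblast identity genes and 4 TGF-beta ligands and receptors. All 40 were found among the 55335 gene identifiers of each count file through a GRCm38 annotation. Timp1 was too low to be tested, so 39 of the 40 were among the 16932 genes tested.

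The matrix of the heart has a pericellular and an interstitial part. Each cardiomyocyte is wrapped in a basement membrane, a sheet of type IV collagen and laminin, which capillary endothelium also lays down on its side. Between the cells lies an interstitial matrix of fibrillar collagens I and III, elastic fibres and proteoglycans, made chiefly by fibroblasts, which are known by Pdgfra and Tcf21. TGF-beta is the main signal known to raise fibroblast matrix synthesis in cardiac fibrosis, and stiffening of this matrix is a known feature of diastolic heart failure.

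Bulk RNA of cells labelled cardiomyocytes was sequenced from male mice that were 7 to 8 weeks old when they entered the diets. The 4 groups crossed genotype with diet, with 3 replicates each by the labels. Wt CD was wild-type C57BL/6J on standard chow and Wt HFD the same strain on a high fat, high cholesterol Western diet. ApoE KO CD and ApoE KO HFD were B6.129P2-Apoe tm1Unc/J mice, whose Apoe gene (apolipoprotein E, which clears lipoproteins from blood) is disrupted in every cell, on the same 2 diets. All groups ate their diet for 7 weeks. The knockout acts on the whole animal, so no group separates an effect in the heart from one of blood lipids. The labels do not say whether replicates were separate animals, and the p-values therefore measure the spread between libraries, which may be technical.

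In 11 libraries the files held 22130323 to 46424614 counts, of which 51.5% to 71.3% were on the mitochondrial genome and 11177 to 23408 on the 40 genes. Wt HFD replicate 3 held 1347110 counts, only 491 of them on the 40 genes, and 63.2% of its counts on 2502 pairs of overlapping genes fell on the antisense partner, against 0.448% to 0.675% in the others. It was left out, so Wt HFD has n = 2. Apoe, the targeted gene, went against the labels on chow: it had 92, 54 and 96 counts in the libraries labelled Wt CD and 898, 602 and 274 in those labelled ApoE KO CD. On the high fat diet it had 691 and 379 counts in Wt HFD and 81, 81 and 126 in ApoE KO HFD. Groups are named by those labels, and the direction and meaning of every comparison below rest on them. Leaving out Wt CD replicate 2 raised the number of genes called over the whole table many times over in the 3 comparisons with Wt CD, as given beside each. The cardiomyocyte label was checked against its markers: 8 genes such as Myh6 and Ttn summed to 83408 to 96670 CPM (counts scaled to a common library size) in each library, while 16 cardiac fibroblast markers, 7 of them among the 40 genes, summed to 41 to 73.9 CPM and 10 endothelial markers to 68.7 to 176.4 CPM. In such bulk RNA fewer cells of a type and less RNA per cell cannot be told apart.

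Among the 40 genes, most of the RNA came from the basement membrane genes. Per kilobase of transcript, the 2 chains of the major type IV collagen were the most abundant of the 40 genes: Col4a2 stood at 20.2 ± 3.42 CPM per kilobase and Col4a1 at 16.1 ± 2.58 (SD, n = 11 libraries). The laminin chains followed, with Lama2, the alpha chain of muscle laminin, at 7.18 ± 0.969, Lamc1 at 5.75 ± 0.546 and Lamb1 at 4.67 ± 0.553 CPM per kilobase. Sparc, a collagen-binding glycoprotein, lay among them at 5.77 ± 1.47 CPM per kilobase. Summed in CPM, the 7 basement membrane genes held 74.2% to 82.9% of the RNA of the 40 genes in each library and the 5 fibrillar collagens 2.20% to 3.28%. The share favours long transcripts, since CPM is not divided by length. Ranks and shares cover only the 40 listed genes. Outside the list, Hspg2 had 231.9 to 338.9 CPM, Lamb2 193.2 to 240.2 and Lama5 123.2 to 171.9. Within it, Col4a2 had 112.7 to 190.3 CPM and Lamb1 20.4 to 30.1.

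The fibrillar collagens and the fibroblast identity genes were low. Col1a1, the alpha-1 chain of collagen I, ranked 27th per kilobase with 0.328 ± 0.118 CPM per kilobase (SD, n = 11), and Col4a1 stood 33.7 to 90.5 times above it, depending on the library. Col3a1, the chain of collagen III, was the highest fibrillar collagen per kilobase of principal transcript, at 0.712 ± 0.197 CPM per kilobase. The receptor gene Pdgfra had 0.208 ± 0.0781 and the transcription factor gene Tcf21 0.156 ± 0.0708 CPM per kilobase. At the bottom of the tested genes were Loxl2 (0.0604 ± 0.0366), Tnc (0.0469 ± 0.0201) and Lox (0.0427 ± 0.0278 CPM per kilobase). Of the 40 genes, 10 lay above the median of 13665 tested protein-coding genes, which was 1.40 CPM per kilobase. Dcn, also a fibroblast marker, was among these at 2.13 ± 0.789 CPM per kilobase. With the length of all exons of a gene in place of its principal transcript, Col4a2 and Col4a1 kept ranks 1 and 2, while Lama2 moved from rank 3 to 4, Lamc1 from 5 to 3 and Dcn from 9 to 14. By that length Col5a1, at 0.474 CPM per kilobase, stood above Col3a1, at 0.404.

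**Figure D1:**
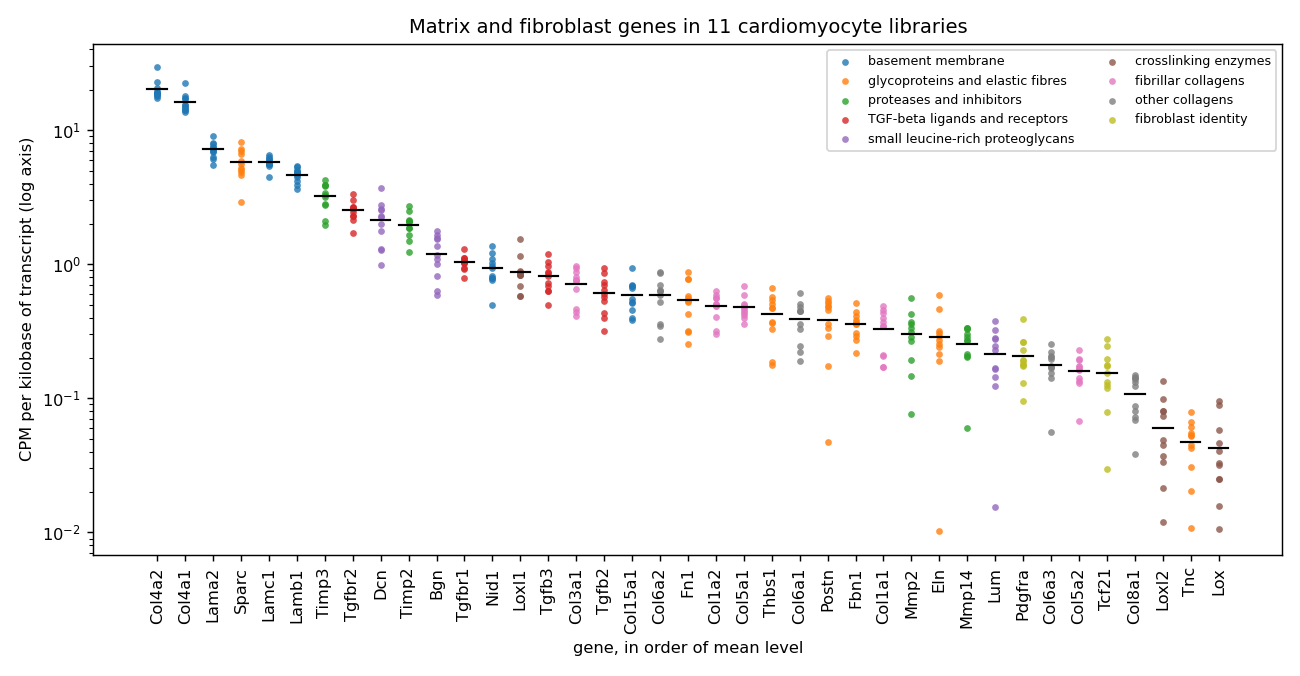
Level of 39 of the 40 genes in 11 libraries, in CPM per kilobase of principal transcript on a log axis, with genes in order of their mean. Each point is 1 library, coloured by the role of the gene, and each bar is the mean. Timp1, which has libraries at 0, is not drawn. Basement membrane genes hold 5 of the 6 highest places, led by Col4a2 at 20.2, and Col1a1 lies at 0.328.

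Col4a1 and Col4a2 are shown here by sequence because the 2 most abundant genes of the set start from 1 shared stretch and point away from each other. On chromosome 8 of GRCm38, Col4a1 spans 11198423 to 11312826 on the minus strand and Col4a2 11312805 to 11449287 on the plus strand, so that their starts lie 21 bases apart with overlapping first exons. The RefSeq windows of 250 bases before to 50 bases after each start (GRCm38.p6) are chr8:11312777-11313076 on the minus strand for Col4a1 and chr8:11312555-11312854 on the plus strand for Col4a2. Capitals mark the 78 bases, 11312777 to 11312854, that both windows hold, and each window gives them on its own strand. Col3a1 is printed beside them as the fibrillar collagen highest per kilobase of principal transcript, from chr1:45311288-45311587 on the plus strand, with capitals on the TATAAA motif.
Col4a1: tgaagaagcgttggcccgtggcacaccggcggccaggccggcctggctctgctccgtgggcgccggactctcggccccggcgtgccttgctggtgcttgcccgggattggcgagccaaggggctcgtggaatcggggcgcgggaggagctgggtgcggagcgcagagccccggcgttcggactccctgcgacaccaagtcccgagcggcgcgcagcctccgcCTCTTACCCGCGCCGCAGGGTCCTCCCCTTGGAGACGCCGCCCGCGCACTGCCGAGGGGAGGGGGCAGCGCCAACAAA
Col4a2: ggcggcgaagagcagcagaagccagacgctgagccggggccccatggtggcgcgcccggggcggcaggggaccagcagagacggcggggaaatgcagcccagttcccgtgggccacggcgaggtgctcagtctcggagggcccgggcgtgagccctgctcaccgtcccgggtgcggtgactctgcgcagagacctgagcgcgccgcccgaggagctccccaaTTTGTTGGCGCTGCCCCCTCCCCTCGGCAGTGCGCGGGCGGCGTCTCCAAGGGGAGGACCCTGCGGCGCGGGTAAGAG
Col3a1: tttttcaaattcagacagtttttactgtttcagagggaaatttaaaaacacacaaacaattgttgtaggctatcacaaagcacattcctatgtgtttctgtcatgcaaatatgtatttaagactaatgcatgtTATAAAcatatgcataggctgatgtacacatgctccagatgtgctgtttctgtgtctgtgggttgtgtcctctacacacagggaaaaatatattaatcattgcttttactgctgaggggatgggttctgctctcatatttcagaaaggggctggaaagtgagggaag

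The Col4a1 and Col4a2 windows were 74.0% and 73.7% G or C, against 37.7% in Col3a1 and a median of 52.7% over 32851 windows of that length. RefSeq windows were at hand for 27 of the 40 genes (31 windows, 1 per start). Their median content of G or C was 56.7%, above the 52.7% of all windows. Searched on both strands, GGGCGG (the GC box) was in 19 of the 31 windows (61.3%) and in 35.7% of all windows. The Col4a1 and Col4a2 windows were among the 19. CCAAT was in 13 of 31 and in 37.4% of all, and TATAAA in 5 of 31 and 13.6% of all. Windows of genes that share a start region overlap and are not independent, and a match is a string of letters, not a measured binding site.

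The paired type IV chains ran together across libraries. Col4a1 had 149.1, 92.9 and 115.6 CPM in Wt CD replicates 1 to 3, 96.7 and 119.8 in Wt HFD replicates 1 and 2, 97.9, 90.7 and 102.1 in ApoE KO CD, and 101.5, 112.8 and 94.3 in ApoE KO HFD. Col4a2 had 190.3, 122.6 and 147.5 CPM in Wt CD, 120.1 and 122.5 in Wt HFD, 118.0, 115.9 and 127.2 in ApoE KO CD, and 122.1, 134.0 and 112.7 in ApoE KO HFD. Both were highest in Wt CD replicate 1, and all groups overlapped for Col4a1. The ratio of Col4a2 to Col4a1 per kilobase, chains that join in the same trimer, was between 1.05 and 1.35 in the 11 libraries with a median of 1.27. Col4a2 was lower than in Wt CD by a fitted log2 fold change of -0.35 (SE 0.15, adjusted p = 0.257) in ApoE KO CD, -0.34 (SE 0.17, adjusted p = 0.400) in Wt HFD and -0.32 (SE 0.15, adjusted p = 0.332) in ApoE KO HFD. None of these passed, and only the Wt HFD libraries lay wholly below those of Wt CD. Without Wt CD replicate 1 the values were -0.17, -0.16 and -0.14. Here and below, fold changes come from edgeR, with p-values adjusted over all 16932 genes tested, and a gene passed at an adjusted p under 0.05. The 3 comparisons with Wt CD share its 3 libraries.

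Lama2 (chromosome 10, 26980036 to 27619758) makes the laminin chain whose loss causes congenital muscular dystrophy. It had 66.3, 60.7 and 53.3 CPM in Wt CD, 76.9 and 76.3 in Wt HFD, 72.5, 86.4 and 68.7 in ApoE KO CD, and 72.3, 58.7 and 67.6 in ApoE KO HFD. Every Wt HFD and every ApoE KO CD library lay above every Wt CD library, and ApoE KO HFD overlapped Wt CD. The log2 fold changes against Wt CD were 0.35 (SE 0.15, adjusted p = 0.337) for Wt HFD, 0.33 (SE 0.13, adjusted p = 0.237) for ApoE KO CD and 0.14 (SE 0.13, adjusted p = 0.666) for ApoE KO HFD. The Wt HFD value turned to -0.07 when the antisense-rich Wt HFD replicate 3 was included. Of the other basement membrane genes, Lamc1 (34.4 to 49.5 CPM over the 11 libraries) and Lamb1 (20.4 to 30.1) were among the steadiest of the 40, with a highest library 1.44 and 1.48 times the lowest. Nid1, the linker nidogen-1, and Col15a1, a collagen at the edge of basement membranes, were lower and more spread. Nid1 ranged from 3.01 to 8.35 CPM. Col15a1 had 2.69, 2.86 and 3.57 CPM in Wt CD, 3.59 and 4.83 in Wt HFD, 3.43, 2.35 and 2.07 in ApoE KO CD, and 2.65, 1.98 and 3.61 in ApoE KO HFD, where 1 library overlapped Wt HFD.

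Within Wt CD the fibrillar collagens varied more between libraries than between the 4 group means, but not within Wt HFD (n = 2). Col1a1 (chromosome 11, 94936224 to 94953042) had 2.72, 1.02 and 1.24 CPM in Wt CD, 2.58 and 2.89 in Wt HFD, 2.05, 2.07 and 1.01 in ApoE KO CD, and 2.37, 1.23 and 2.20 in ApoE KO HFD. Each of the 3 groups with 3 libraries held 1 or 2 libraries near the bottom of the range, and Wt HFD held none. Its log2 fold change was largest for Wt HFD against Wt CD, 0.70 (SE 0.40, adjusted p = 0.460). Col3a1 (chromosome 1, 45311538 to 45349706) had 4.49, 2.28 and 2.59 CPM in Wt CD, 5.37 and 5.21 in Wt HFD, 4.89, 4.21 and 2.45 in ApoE KO CD, and 3.64, 4.18 and 4.28 in ApoE KO HFD. The Wt HFD libraries were the 2 highest of the 11. The log2 fold change of Wt HFD against Wt CD was 0.75 (SE 0.29, adjusted p = 0.286), and 0.57 to 1.11 with 1 library left out. Col1a2, which pairs with Col1a1 in collagen I, ranged from 1.62 to 3.38 CPM. Col5a1 and Col5a2, chains of the collagen V that nucleates fibrils, ranged from 3.02 to 5.76 and from 0.451 to 1.51 CPM, with no group of any comparison apart except Col5a1, lower in ApoE KO HFD than in Wt HFD in every library.

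Among the other collagens, Col6a1, Col6a2 and Col6a3 form the beaded collagen VI next to the cell surface and Col8a1 a short-chain collagen of vessels. Col6a3 had 1.58, 1.53 and 1.77 CPM in Wt CD, 2.30 and 1.98 in Wt HFD, 1.38, 1.51 and 0.506 in ApoE KO CD, and 1.87, 1.27 and 1.83 in ApoE KO HFD. Its lowest library, ApoE KO CD replicate 3, set the largest value of the diet comparison in the ApoE KO groups, a fitted log2 fold change of 0.58 (SE 0.34, adjusted p = 1), which was 0.20 without that library. Col6a1 had 1.96, 0.902 and 2.52 CPM in Wt CD, 1.84 and 1.85 in Wt HFD, 1.35, 1.47 and 0.784 in ApoE KO CD, and 2.06, 1.01 and 1.83 in ApoE KO HFD, so its groups overlapped. Col6a2 had 1.36, 2.51 and 2.78 CPM in Wt CD, 3.40 and 3.45 in Wt HFD, 2.53, 2.07 and 1.09 in ApoE KO CD, and 2.49, 1.42 and 2.33 in ApoE KO HFD. The 2 Wt HFD libraries were the highest of the 11, and the log2 fold change of ApoE KO HFD against Wt HFD was -0.71 (SE 0.34, adjusted p = 1). Col8a1 had 0.411, 0.196 and 0.451 CPM in Wt CD, 0.630 and 0.713 in Wt HFD, 0.759, 0.676 and 0.354 in ApoE KO CD, and 0.741, 0.373 and 0.726 in ApoE KO HFD. Its log2 fold change against Wt CD was 0.91 (SE 0.52, adjusted p = 0.469) in Wt HFD, where both libraries lay above Wt CD, and 0.80 (SE 0.48, adjusted p = 0.468) in ApoE KO HFD, where they overlapped.

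Dcn, the proteoglycan decorin that binds collagen fibrils, was the gene of the set with the smallest adjusted p. It lies on chromosome 10, 97479609 to 97518143. It had 3.10, 2.28 and 1.73 CPM in Wt CD, 6.52 and 4.54 in Wt HFD, 4.50, 3.94 and 2.25 in ApoE KO CD, and 4.88, 3.51 and 4.03 in ApoE KO HFD. All Wt HFD and all ApoE KO HFD libraries lay above all Wt CD libraries, and ApoE KO CD spanned both. The log2 fold change against Wt CD was 1.21 (SE 0.29, adjusted p = 0.119) for Wt HFD, 0.80 (SE 0.27, adjusted p = 0.224) for ApoE KO HFD and 0.57 (SE 0.27, adjusted p = 0.317) for ApoE KO CD. Against Wt CD the Wt HFD value corresponds to 2.32-fold and ranged from 0.98 to 1.5 with 1 library left out. DESeq2 called it, with 1.19. Lum, which encodes the related lumican, followed with wide errors: it had 25, 9 and 1 counts in the Wt CD libraries, 25 and 27 in Wt HFD, 33, 14 and 12 in ApoE KO CD, and 17, 11 and 27 in ApoE KO HFD. Bgn (biglycan) ranged from 1.42 to 4.27 CPM, lowest in ApoE KO CD replicate 3 and highest in Wt HFD replicate 1.

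The crosslinking enzymes went in different directions. Loxl2 (chromosome 14, 69609068 to 69695834), a lysyl oxidase, had the largest fold change of the set on very few counts: 2, 5 and 3 in Wt CD, 19 and 32 in Wt HFD, 14, 6 and 7 in ApoE KO CD, and 18, 7 and 17 in ApoE KO HFD. These counts stand for 0.0633, 0.196 and 0.113 CPM in Wt CD, 0.521 and 0.713 in Wt HFD, 0.394, 0.239 and 0.177 in ApoE KO CD, and 0.431, 0.261 and 0.426 in ApoE KO HFD. Both high fat groups lay wholly above Wt CD, and ApoE KO CD overlapped it. The log2 fold changes were 2.31 (SE 0.65, adjusted p = 0.189) for Wt HFD against Wt CD, 1.61 (SE 0.63, adjusted p = 0.263) for ApoE KO HFD against Wt CD and 1.13 (SE 0.65, adjusted p = 0.400) for ApoE KO CD against Wt CD.

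Loxl1 (chromosome 9, 58287738 to 58313186), the enzyme that crosslinks elastin, was highest in Wt CD. It had 5.09, 3.81 and 2.89 CPM there, 2.79 and 2.96 in Wt HFD, 1.91, 2.27 and 2.73 in ApoE KO CD, and 2.73, 1.90 and 2.73 in ApoE KO HFD. Every library of both ApoE KO groups lay below every Wt CD library. The log2 fold change against Wt CD was -0.77 (SE 0.25, adjusted p = 0.149) in ApoE KO CD and -0.67 (SE 0.24, adjusted p = 0.247) in ApoE KO HFD. Lox itself was nearly absent, with 2 to 15 counts per library over 11 libraries. It had 7, 3 and 12 counts in Wt CD, 10 and 7 in Wt HFD, 15, 3 and 2 in ApoE KO CD, and 8, 2 and 6 in ApoE KO HFD, and its groups overlapped throughout. Its log2 fold change of ApoE KO HFD against Wt CD, -0.87, had an SE of 0.83 (adjusted p = 0.663).

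Timp2 (chromosome 11, 118301069 to 118355740), an inhibitor of matrix metalloproteinases, had its lowest levels in Wt CD. It had 4.55, 6.16 and 5.56 CPM in Wt CD, 10.1 and 7.64 in Wt HFD, 6.95, 9.19 and 7.74 in ApoE KO CD, and 6.91, 7.99 and 7.74 in ApoE KO HFD. Every library of the 3 other groups lay above every Wt CD library. Of all genes tested, 12.8% lay wholly above Wt CD in Wt HFD, 8.92% in ApoE KO CD and 8.42% in ApoE KO HFD. The share for the 3 groups at once was not computed. The log2 fold change of Timp2 was 0.71 (SE 0.19, adjusted p = 0.172) in Wt HFD, 0.55 (SE 0.18, adjusted p = 0.149) in ApoE KO CD and 0.48 (SE 0.18, adjusted p = 0.248) in ApoE KO HFD. Cep295nl, which overlaps Timp2 on the same strand, had 125 counts in the 11 libraries against 2755 for Timp2. Timp3 ranged from 9.26 to 20.1 CPM, and the matrix proteases Mmp2 and Mmp14 from 0.235 to 1.73 and from 0.157 to 0.872 CPM. Mmp2 and Mmp14 were lowest in Wt CD replicate 2. Timp1, the inhibitor often raised in fibrosis, had 0 counts in each Wt CD library, 8 and 1 in Wt HFD, 4, 1 and 1 in ApoE KO CD, and 4, 4 and 2 in ApoE KO HFD. A count of 0 allows up to 3 counts, or 0.0949 to 0.118 CPM in the Wt CD libraries, which covers all but 2 of the other libraries, so no difference was detectable at this depth.

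**Figure D2:**
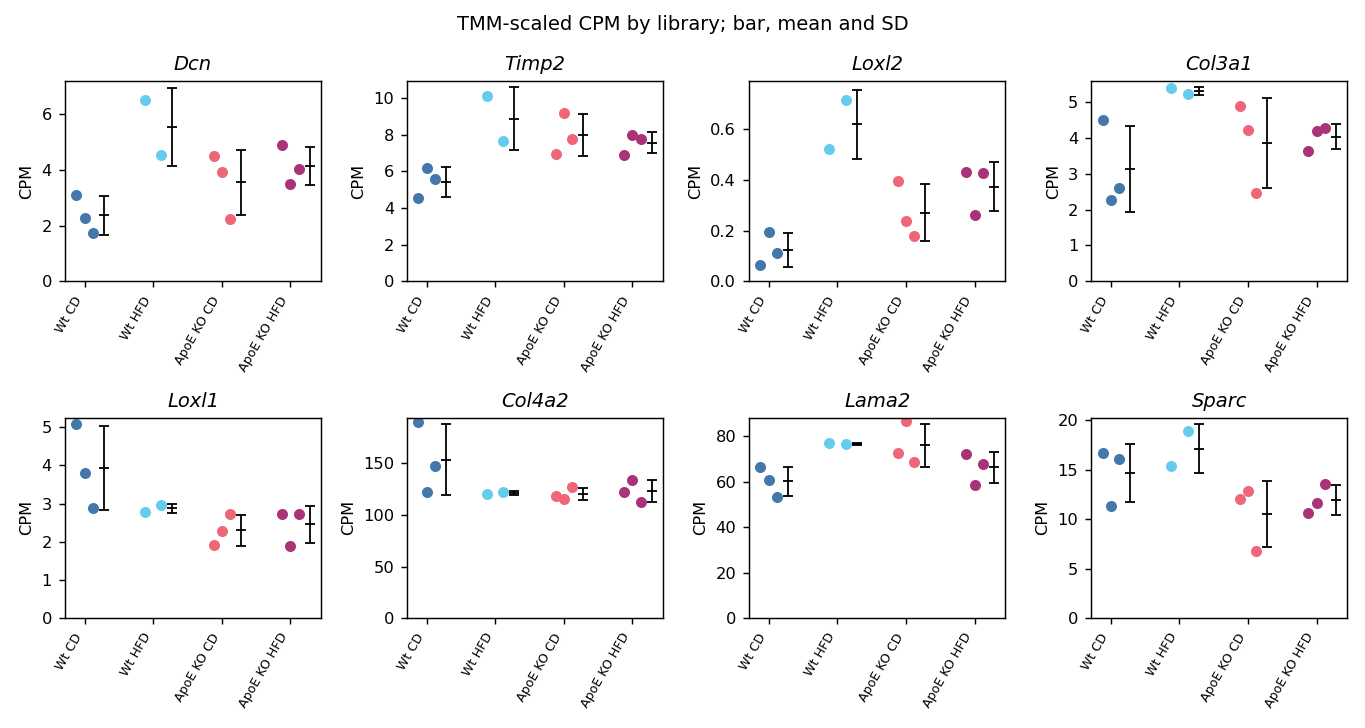
CPM after TMM scaling (y axis, from 0) of 8 genes in the libraries of the 4 groups (x axis). Each point is 1 library and each bar the group mean with its SD, n = 3 except Wt HFD with n = 2. The Wt CD libraries lie below all others for Timp2 (4.55 to 6.16 CPM) and below both high fat groups for Dcn and Loxl2. They lie above both ApoE KO groups for Loxl1.

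Among glycoproteins and elastic fibre genes, Sparc had 16.7, 11.3 and 16.1 CPM in Wt CD, 15.4 and 18.9 in Wt HFD, 12, 12.9 and 6.75 in ApoE KO CD, and 10.6, 11.6 and 13.6 in ApoE KO HFD. Both Wt HFD libraries lay above all 3 of ApoE KO HFD, with a fitted log2 fold change of -0.53 (SE 0.23, adjusted p = 1). Eln, the elastin gene, rested on few counts, with 33, 1 and 30 in Wt CD, 65 and 37 in Wt HFD, 81, 31 and 29 in ApoE KO CD, and 41, 25 and 47 in ApoE KO HFD. Wt CD replicate 2, with its 1 count, is the lowest, and the log2 fold change was 0.92 (SE 0.62, adjusted p = 0.482) for ApoE KO CD and 0.79 (SE 0.67, adjusted p = 0.642) for Wt HFD against Wt CD. Without ApoE KO CD replicate 1 the first was 0.37, and without Wt HFD replicate 1 the second was 0.20. Fbn1, the microfibril protein fibrillin-1, ranged from 2.60 to 6.15 CPM, with the 2 Wt HFD libraries highest. Fn1 (fibronectin) ranged from 2.11 to 7.31 CPM, with its lowest and highest libraries both in Wt CD. Postn, periostin, which marks activated fibroblasts, ranged from 0.150 to 1.78 CPM and Thbs1, a TGF-beta activator, from 1.04 to 3.88 CPM. Tnc (tenascin-C, a matrix protein of injury) stayed at 0.0759 to 0.557 CPM. For Fn1, Postn, Thbs1 and Tnc the groups overlapped in every comparison.

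The fibroblast identity genes gave no separation on chow or between diets. Pdgfra (chromosome 5, 75152292 to 75198215) had 2.66, 1.57 and 1.24 CPM in Wt CD, 1.21 and 1.80 in Wt HFD, 1.32, 1.19 and 0.658 in ApoE KO CD, and 1.79, 0.896 and 1.30 in ApoE KO HFD. Its log2 fold change of ApoE KO CD against Wt CD was -0.80 (SE 0.37, adjusted p = 0.303), and -0.42 without Wt CD replicate 1, the highest library. Tcf21 had 7, 9 and 1 counts in Wt CD, 9 and 14 in Wt HFD, 7, 4 and 4 in ApoE KO CD, and 7, 6 and 6 in ApoE KO HFD. In CPM both Wt HFD libraries (0.247 and 0.312) lay above those of ApoE KO HFD (0.167, 0.224 and 0.150), with a fitted log2 fold change of -0.64 (SE 0.79, adjusted p = 1). The ratio of Dcn to Pdgfra per kilobase was 4.54, 5.64 and 5.42 in Wt CD, 21 and 9.79 in Wt HFD and 10.6 to 15.2 in the libraries of the ApoE KO groups. The 3 Wt CD libraries were thus the lowest in this ratio.

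Of the TGF-beta genes, the receptor genes were the more abundant. Tgfbr2 ranged from 5.94 to 11.7 CPM and Tgfbr1, the signalling kinase, from 4.51 to 7.48, both lowest in Wt CD replicate 3. Tgfbr1 in every Wt HFD and every ApoE KO CD library lay above every Wt CD library, with log2 fold changes of 0.36 (SE 0.19, adjusted p = 0.433) and 0.22 (SE 0.17, adjusted p = 0.549). The ligand genes Tgfb2 and Tgfb3 ranged from 1.62 to 4.77 and from 1.68 to 4.06 CPM. Tgfb2 was lower in every ApoE KO HFD library (3.06, 2.02 and 2.73 CPM) than in every ApoE KO CD library (3.80, 3.30 and 3.59 CPM), with a fitted log2 fold change of -0.44 (SE 0.31, adjusted p = 1). Tgfb3 shares bases on the other strand with Ttll5, which had 3630 counts against 1021 for Tgfb3. The library kit keeps the strand, per the labels.

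In Wt HFD against Wt CD most genes of the set were above 0. Log2 fold changes were all above 0 for the proteoglycan genes (3), fibrillar collagens (5), other collagens (4), proteases and inhibitors (4) and TGF-beta genes (4). Their medians were 0.67, 0.31, 0.51, 0.36 and 0.16. The 8 genes below 0 were Col4a1, Col4a2, Lamb1, Thbs1, Tnc, Lox, Loxl1 and Pdgfra (-0.28). Of the 39 tested genes 31 were above 0, and the median was 0.26, beside -0.01 over all genes tested. None passed by edgeR, where 0.207% of all genes did, and 6 had an unadjusted p under 0.05 (Col3a1, Lama2, Fbn1, Dcn, Loxl2 and Timp2), beside 12.9% of all genes. DESeq2 called 1, Dcn, beside 1.2% of all genes. In 11 of the 39 (Col3a1, Lama2, Col15a1, Col8a1, Col6a2, Col6a3, Fbn1, Dcn, Loxl2, Timp2 and Tgfbr1), or 28.2%, both Wt HFD libraries lay above all Wt CD libraries, beside 12.8% of all genes. In 1, Col4a2, they lay below, beside 11.8% of all genes. Wt CD replicate 2 bore on these calls: without it edgeR called 3 of the genes, Dcn (1.18), Loxl2 (2.79) and Timp2 (0.81), and 1019 genes in all in place of 35.

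ApoE KO HFD against Wt CD, which by the labels sets both factors together against neither, was centred near 0. Dcn, Timp2 and Loxl2 were above Wt CD in every library and Loxl1 below. Of 39 genes 19 were above 0 and 20 below, and the median log2 fold change was -0.05, beside -0.01 for all genes. None passed by edgeR, beside 0.154% of all genes. By unadjusted p under 0.05 there were 5 (Col4a2, Dcn, Loxl1, Loxl2 and Timp2), beside 14.2%, and DESeq2 called 0, beside 1.31%. The 3 genes wholly above Wt CD stand beside 8.42% of all genes and the 1 below beside 7.22%. Basement membrane genes had 5 of 7 below 0, with a median of -0.13. Without Wt CD replicate 2 edgeR called 1 of the genes, Col4a2 (-0.46), and 1304 genes in all in place of 26.

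ApoE KO CD against Wt CD, the genotype labels on chow, gave Loxl1, Pdgfra and Sparc below 0 and Timp2, Lama2 and Dcn above. The split was 19 above and 20 below, with a median of -0.06 beside -0.01. None passed by edgeR, beside 0.508% of all genes, and DESeq2 called 0, beside 3.52%. An unadjusted p under 0.05 was reached by 6 (Col4a2, Lama2, Sparc, Loxl1, Timp2 and Pdgfra), beside 15.9% of all genes. Lama2, Timp2 and Tgfbr1 lay wholly above Wt CD, 3 of 39 beside 8.92% of all genes, and Col6a3 and Loxl1 wholly below, 2 of 39 beside 7.67%. The median moved to 0.25 without ApoE KO CD replicate 3 and to 0.17 without Wt CD replicate 1. Without Wt CD replicate 2, edgeR called 3 of the genes, Col4a1, Col4a2 (-0.49) and Timp2 (0.65), and 1801 genes in all in place of 86.

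ApoE KO HFD against ApoE KO CD, the diets within the knockout label, had no gene of the set beyond a log2 fold change of 0.58 in either direction. Col6a3, Loxl2 and Col6a1 were at log2 fold changes of 0.58, 0.48 and 0.47 and Lox at -0.47, all with overlapping groups. Of 39 genes 23 were above 0, with a median of 0.08 beside 0.01 for all genes. None passed by edgeR, beside 0.0709%, none had an unadjusted p under 0.05, beside 1.53%, and DESeq2 called 0, beside 0.118%. No gene lay wholly above ApoE KO CD, beside 5.04% of all genes, and 1, Tgfb2, lay wholly below, beside 3.99%.

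ApoE KO HFD against Wt HFD, the genotype labels on the high fat diet, had most genes below 0. Loxl2 and Col6a2 stood at -0.71 each, Tcf21 at -0.64 and Col15a1 at -0.61 (SE 0.28, unadjusted p = 0.0413, adjusted p = 1). All 5 fibrillar collagens were below 0, with a median of -0.37, and 34 of the 39 genes in all, with a median of -0.32 beside 0.01 for all genes. None passed by edgeR, beside 0.0472% of all genes, 2 had an unadjusted p under 0.05 (Col15a1 and Sparc), beside 2.83%, and DESeq2 called 0, beside 0.221%. In 13 of 39, or 33.3%, all ApoE KO HFD libraries lay below both Wt HFD libraries, beside 10.3% of all genes, and in none above, beside 11.3%. The 13 were Col1a1, Col3a1, Col5a1, Lama2, Col6a2, Col6a3, Fbn1, Sparc, Bgn, Loxl1, Loxl2, Mmp2 and Tcf21. This comparison and that of Wt HFD with Wt CD rest on the same 2 Wt HFD libraries and are not independent. Over all genes 8 were called, and 20 without Wt CD replicate 2.

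**Figure D3:**
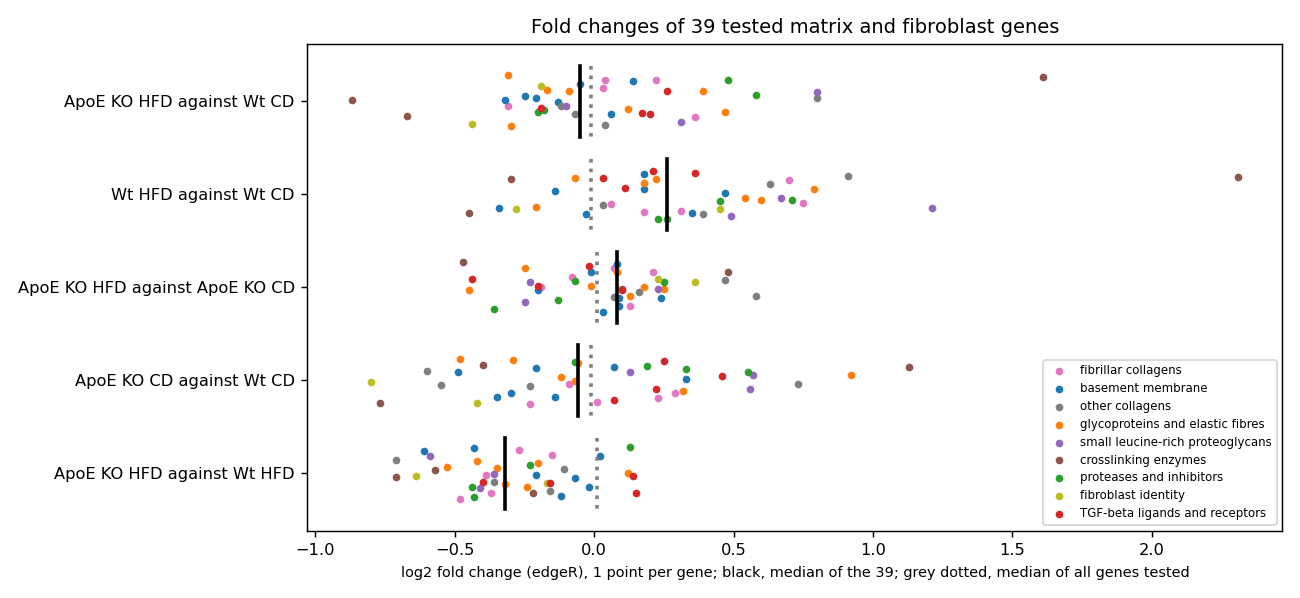
Log2 fold change by edgeR (x axis) of the 39 tested genes in the 5 comparisons between 2 groups (rows), 1 point per gene, coloured by role. The black bar is the median of the 39 and the grey dotted bar that of all genes tested. The medians are 0.26 for Wt HFD against Wt CD and -0.32 for ApoE KO HFD against Wt HFD, and Loxl2 is the point at 2.31.

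The difference between the diet effects under the 2 genotype labels was tested directly as an interaction. That reading rests on the chow labels, which the Apoe counts went against. With the 2 chow labels exchanged, the same contrast would set both knockout groups against both wild-type groups. Dcn had -0.98 (SE 0.39, adjusted p = 0.545), Loxl2 -1.84 (SE 0.87, adjusted p = 0.600), Eln -1.24 (SE 0.90, adjusted p = 0.733) and Lum -0.91 (SE 0.92, adjusted p = 0.813). No gene of the set passed by edgeR, beside 0.219% of all genes, and DESeq2 called 0, beside 0.788%. An unadjusted p under 0.05 was reached by 4 (Lama2, Dcn, Loxl2 and Timp2), beside 8.2%. With 1 library left out, Lum ranged from -1.95 (without Wt CD replicate 1) to -0.38 (without Wt CD replicate 3) and Eln from -1.75 (without Wt HFD replicate 2) to -0.64 (without Wt HFD replicate 1). The diet effect was thus not shown to differ between the labels for any of the 39. The median was -0.29, beside 0.02 for all genes, and -0.56 without ApoE KO CD replicate 3. Over all genes 37 were called, and 285 without Wt CD replicate 2.

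Single libraries carried much of the spread of the interstitial genes (19 fibrillar and other collagens, glycoproteins, elastic fibre genes and proteoglycans). In ApoE KO CD replicate 3, 18 of the 19 lay below their own median over the 11 libraries, by a median of -0.68 on the scale of log2(CPM + 0.5), while the 7 basement membrane genes had a median deviation of 0.00. It was the lowest library for 12 of the 39 genes, beside 7.21% of all genes tested. Wt CD replicate 3 was the lowest for 11 of the 39, beside 22.5% of all genes. Over all genes, Wt CD replicates 1 to 3 were lowest for 15.3%, 15.5% and 22.5% and highest for 14.7%, 13.7% and 19.9%. These shares were larger than in any library of the other groups. ApoE KO HFD replicate 2 had 17 of 19 below, by -0.23, and Wt CD replicate 2 had 14 of 19 below, by -0.32. The 2 Wt HFD libraries had 15 and 16 of the 19 above, by 0.26 and 0.17. The other ApoE KO CD libraries, replicates 1 and 2, stood at 0.10 and 0.00. The median over all genes was 0.00 in each library.

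**Figure D4:**
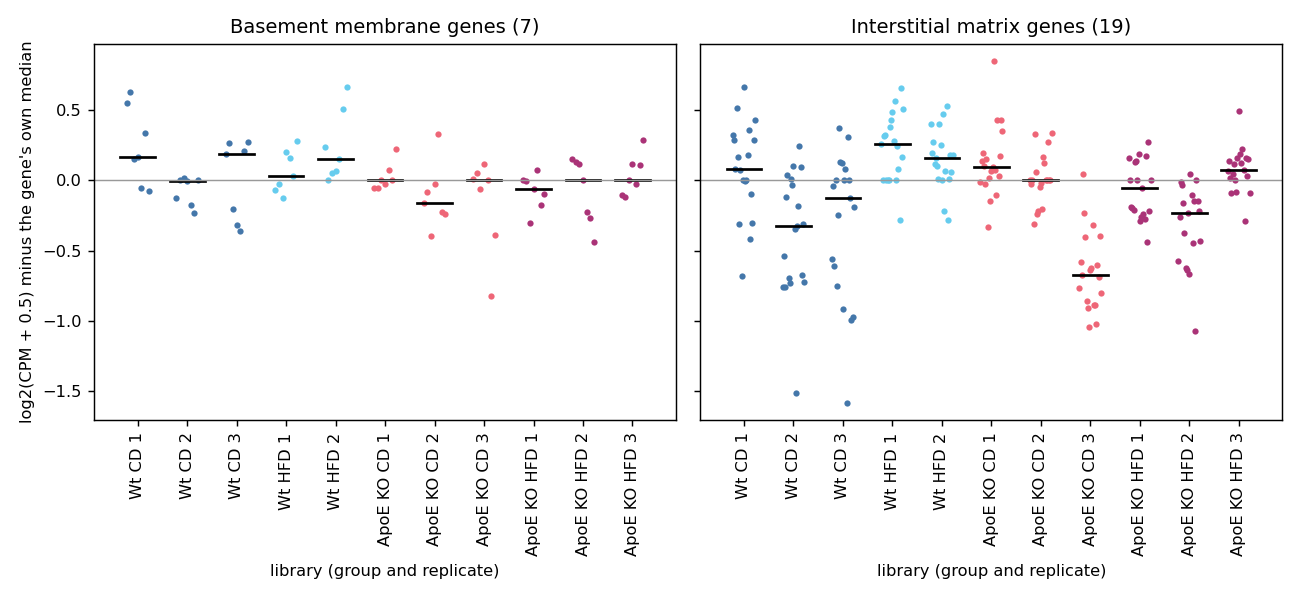
Deviation of each gene from its own median over the 11 libraries, in log2(CPM + 0.5) (y axis), by library (x axis), for 7 basement membrane genes (left) and 19 interstitial genes (right). Each point is 1 gene and each bar the median. ApoE KO CD replicate 3 is at -0.68 on the right and 0.00 on the left, and the Wt HFD libraries are at 0.26 and 0.17 on the right.

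Of the set, the 7 basement membrane genes and the 5 fibrillar collagens were compared with markers of other cells. Only the basement membrane genes with endothelial markers had a permutation adjusted p under 0.05 by both Pearson's r and Spearman's rho. The 9 fibroblast markers outside it, such as Gsn, Ogn and Dpt, and the lists of 3 other cell types were set beside the 2 collagen compartments as mean log2(CPM + 0.5) over the 11 libraries, 8 relations in all. The basement membrane level tracked the 10 endothelial markers, with Pearson's r of 0.88 (permutation p = 0.00048, adjusted p = 0.00384) and Spearman's rho of 0.85 (permutation p = 0.00162, adjusted p = 0.013). It was 0.76 without Wt CD replicate 1 and Wt HFD replicate 2, the libraries farthest out, and 0.80 within groups. With the fibroblast markers its r was 0.35 (permutation adjusted p = 0.327). This level is a mean over 7 genes, and single genes and cardiomyocyte markers were not tested. Col4a1 and Col4a2 were highest in Wt CD replicate 1, where the endothelial markers summed to 153.5 CPM. Lama2 was lowest (53.3 CPM) in Wt CD replicate 3, where that sum was 162.8 CPM. It was highest (86.4 CPM) in ApoE KO CD replicate 2, where the sum was 77.4 CPM. The fibrillar collagens had an r of 0.67 with the fibroblast markers (permutation p = 0.0309, adjusted p = 0.0824; rho = 0.64, permutation p = 0.0409, adjusted p = 0.0818), which was 0.53 without the 2 libraries farthest out. With the endothelial markers their r was 0.57 (permutation p = 0.0703, adjusted p = 0.141) and rho 0.75 (permutation p = 0.0115, adjusted p = 0.0462). This r was 0.26 without the 2 farthest libraries, and rho was not computed without them. With the 10 pericyte and smooth muscle markers the fibrillar collagens had an r of 0.66 (permutation p = 0.0189, adjusted p = 0.0754; rho = 0.65, permutation p = 0.0366, adjusted p = 0.0818), which was 0.72 without the 2 libraries farthest out. The fibrillar collagens were thus not shown to track fibroblast markers more than those of other cells. The other 3 relations, of the basement membrane with pericyte and smooth muscle markers and of both compartments with macrophage markers, had adjusted p-values of 0.251 to 0.783 for r. Within groups, the r of the fibrillar collagens was 0.70 with macrophage markers and 0.61 with pericyte and smooth muscle markers. It was 0.60 with endothelial and 0.57 with fibroblast markers. The libraries share normalization and groups, and the part of other cells in the results was not tested.

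**Figure D5:**
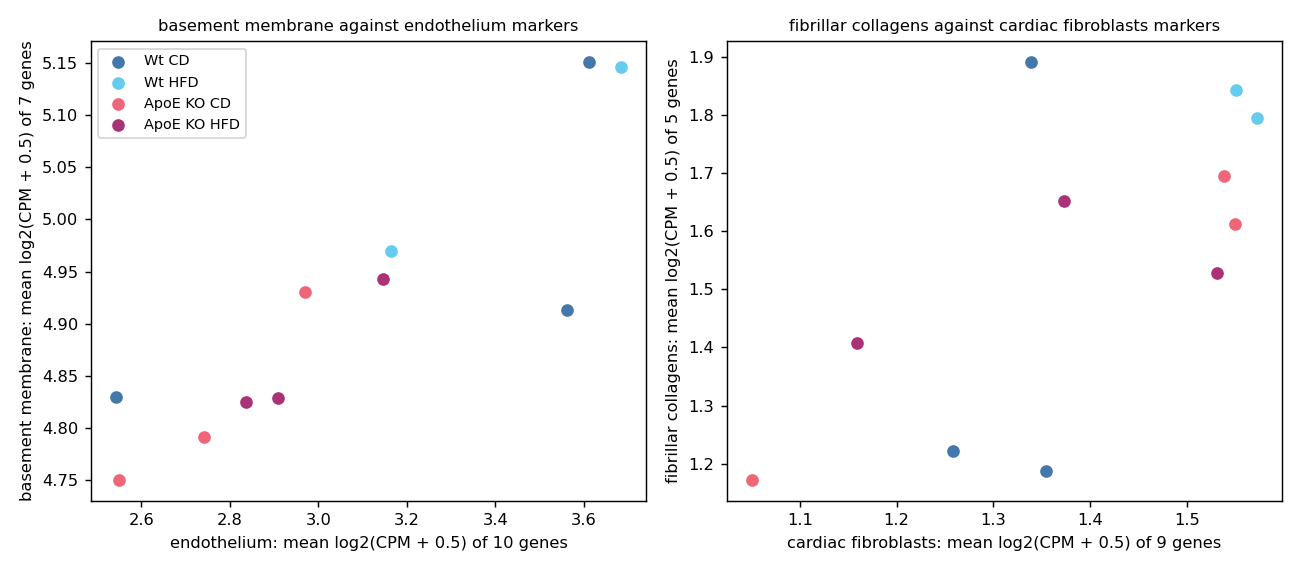
Left, mean log2(CPM + 0.5) of 7 basement membrane genes (y axis) against that of 10 endothelial markers (x axis). Right, the same for 5 fibrillar collagens against 9 fibroblast markers outside the set. Each point is 1 of 11 libraries, coloured by group. The points lie closer to a line on the left (r = 0.88) than on the right (r = 0.67).

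By group the fibroblast markers summed to 41 to 54.7 CPM in Wt CD, 69.9 to 73.9 in Wt HFD, 44.3 to 66.9 in ApoE KO CD and 48.6 to 69.0 in ApoE KO HFD (16 genes, 7 of them in the set, 15 detected in every library; Mfap5 was at 0 in 1). The 2 Wt HFD libraries had the highest sums of the 11, as they did for Col3a1 and Col6a2. Ogn and Gsn together gave 42.5 and 40.5 CPM of these 2 sums, and 5 of the 16 markers (Pdgfra, Pi16, Scara5, Ddr2 and Mfap5) had a lower mean in Wt HFD than in Wt CD. Endothelial markers, all 10 detected in every library, summed to 68.7 to 162.8 CPM in Wt CD, 111.9 to 176.4 in Wt HFD, 69.7 to 94.4 in ApoE KO CD and 84.2 to 123.1 in ApoE KO HFD. Macrophage markers summed to 10.8 to 20, 5.59 to 22.3, 6.12 to 32.8 and 8.55 to 12 CPM in the same order (9 of 10 detected in every library; Fcgr1 was at 0 in 1). Pericyte and smooth muscle markers summed to 183.8 to 253.6, 256.0 to 276.8, 250.3 to 282.9 and 273.3 to 282.9 CPM in that order, of which Abcc9, also a gene of cardiomyocytes, gave 132.1 to 232.1 CPM. Cnn1 was at 0 in all 3 Wt CD libraries. Atrial cardiomyocyte markers (4 genes, all detected in every library) summed to 71.1 to 123.2 CPM in Wt CD and 105.3 to 121.0 in ApoE KO CD. They summed to 174.5 and 7.24 CPM in Wt HFD replicates 1 and 2, and to 83.1, 25.6 and 17.9 in ApoE KO HFD. The libraries of 1 group thus differed in atrial content, and its part in the results was not tested.

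A further 73 matrix, TGF-beta and fibroblast genes, 69 of them tested, were looked at in the same fits. Of these, 0 passed by edgeR in each of the 6 comparisons. An unadjusted p under 0.05 was reached by 12 of the 69 for ApoE KO HFD against Wt CD, beside 14.2% of all genes, by 9 for Wt HFD against Wt CD, beside 12.9%, and by 13 for ApoE KO CD against Wt CD, beside 15.9%. It was reached by 5 for ApoE KO HFD against ApoE KO CD, beside 1.53%, by 4 for ApoE KO HFD against Wt HFD, beside 2.83%, and by 7 for the interaction, beside 8.2%. Of the genes named below, Adamts4, Ccn1, Fbln1 and Pcolce2 were called by edgeR without Wt CD replicate 2, in the comparisons with Wt CD given for them (not Fbln1 in Wt HFD) and, for Fbln1 and Pcolce2, in the interaction. DESeq2 called Adamts4 and Ccn1 in ApoE KO HFD against Wt CD and Fbln1 and Pcolce2 in ApoE KO CD against Wt CD.

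Ccn1, a matricellular gene, had 159.1, 163.0 and 143.1 CPM in Wt CD and 115.7, 74.2 and 81.6 in ApoE KO HFD, a fitted log2 fold change of -0.78 (SE 0.19, adjusted p = 0.105). Adamts4, a protease of proteoglycans, was at 0.785 to 1.39 CPM in Wt CD and 0.0718 to 0.336 in ApoE KO HFD, a fitted log2 fold change of -2.36 (SE 0.60, adjusted p = 0.118). In ApoE KO CD against Wt CD it had -2.12 (SE 0.59, adjusted p = 0.102). In each of these comparisons all libraries of the ApoE KO group lay below all Wt CD libraries. Pcolce2, an enhancer of procollagen processing, had 1.77, 2.35 and 1.47 CPM in Wt CD and 3.15, 4.06 and 3.67 in ApoE KO CD, a fitted log2 fold change of 0.96 (SE 0.23, adjusted p = 0.0628). In Wt HFD it had 3.31 and 2.85 CPM, 0.73 above Wt CD on the log2 scale (SE 0.25, adjusted p = 0.250). Its groups did not overlap in either comparison. ApoE KO HFD had 2.75, 2.84 and 3.08 CPM, and the interaction was -1.05 (SE 0.33, adjusted p = 0.409).

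Fbln1, the elastic fibre protein fibulin-1, had 13.8, 12.7 and 9.13 CPM in Wt CD, 19.3 and 15.3 in Wt HFD, 16.7, 21.4 and 18.1 in ApoE KO CD, and 13.8, 10.6 and 12.8 in ApoE KO HFD. It was above Wt CD in Wt HFD (0.54, SE 0.19, adjusted p = 0.254) and ApoE KO CD (0.65, SE 0.17, adjusted p = 0.0802), and ApoE KO HFD lay below ApoE KO CD (-0.59, SE 0.17, adjusted p = 1). Its interaction was -1.13 (SE 0.25, adjusted p = 0.0896), and DESeq2 called it. Efemp1, a fibulin-like protein, was low, at 0 to 0.263 CPM in Wt CD and 0.312 and 0.877 in Wt HFD (2.56, SE 0.89, adjusted p = 0.259). That value was 1.70 without Wt HFD replicate 1 and 4.81 without Wt CD replicate 3. Ccn2 and Tgfbi, both TGF-beta targets, had log2 fold changes of -0.72 (SE 0.24, adjusted p = 1) and -1.83 (SE 0.64, adjusted p = 1) for ApoE KO HFD against ApoE KO CD, with overlapping groups. Nid2, the second nidogen, and Ltbp4, which binds latent TGF-beta, had values of -0.94 (SE 0.32, adjusted p = 1) and, for Ltbp4, -0.52 (SE 0.20, adjusted p = 1) in ApoE KO HFD against Wt HFD, with all ApoE KO HFD libraries below both Wt HFD libraries.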

How the data were processed

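The values are the authors' raw read counts per gene, 1 deposited file per library, with no scaling. The submitters' processing notes name HTSeq 0.13.5, STAR 2.7a, Trimmomatic 0.39 and the build GRCm38 (mm10). The kit, SMART-Seq Stranded per the labels, keeps the strand. Symbols and positions came from a GENCODE annotation of GRCm38, which named 55154 of the 55335 identifiers, and promoter sequences from RefSeq.

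Differences were tested with edgeR 4.0.16 (limma 3.58.1, R 4.3.3) on the counts: TMM factors, filterByExpr by group, 1 mean per group over 11 libraries and the robust quasi-likelihood F test, two-sided, with Benjamini-Hochberg adjustment over 16932 genes within each of 6 comparisons. Residual degrees of freedom were 7. CPM are TMM-scaled over all counts, mitochondrial ones included, and CPM per kilobase are divided by the principal transcript. Relations used 100000 permutations. Depth is 22130323 to 46424614 counts per library, so genes with few counts, such as Lox, Tcf21 and Loxl2, have wide errors.

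Wt HFD replicate 3 was left out for its depth and strand. Replicates of 1 group differed beyond counting noise (chi-square of 24.5 to 189.7 per degree of freedom), so no pair was treated as copies of 1 library; this does not show that they were separate animals. Same-numbered libraries of different groups had deviations that correlated at -0.18 to 0.19, with 1 of 15 pairs above 0.1, and were not paired.

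The 40 genes and the other lists were chosen with earlier results of these data known. Values are given in every library for called genes, for the 4 largest fold changes of each comparison and for Col1a1, Col3a1, Dcn, Pdgfra, Tcf21, Col4a1 and Lama2; of the 73 further genes the 3 smallest p-values of each comparison are named, except for 1 gene that is not reported here. Timp2, Loxl1, Sparc, Col4a2, Tgfbr1, Tgfb2 and the fold changes of Lama2 and Col3a1 were named after their values were seen. Alternatives were DESeq2 1.42.0, RLE factors, a minimum of 50 counts in 3 libraries, no minimum, all 12 libraries, a replicate block, only the groups compared, no mitochondrial counts, and each library left out in turn.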

Additional observations from a re-analysis of the deposited data

How the results depend on the processing

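Under 19 alternatives the 6 counts of called matrix and fibroblast genes stayed at 0, except that DESeq2 called 1 for Wt HFD against Wt CD (Dcn), no filter called 2 there (Dcn and Timp2) and 1 for ApoE KO HFD against Wt CD (Dcn), and leaving out Wt CD replicate 2 called genes in 3 comparisons. With 1 library left out the counts ranged from 0 to 3 for Wt HFD against Wt CD and for ApoE KO CD against Wt CD, from 0 to 1 for ApoE KO HFD against Wt CD, and were 0 in the other 3. The median log2 fold change ranged from -0.16 to 0.25 for ApoE KO CD against Wt CD (0.17 without Wt CD replicate 1) and from -0.56 to -0.14 for the interaction. It stayed above 0 for Wt HFD against Wt CD (0.19 to 0.38) and below 0 for ApoE KO HFD against Wt HFD (-0.41 to -0.23), and crossed 0 for ApoE KO HFD against Wt CD (-0.10 to 0.07) and against ApoE KO CD (-0.08 to 0.25). Of the values of named genes, 929 kept direction and side of the threshold, 37 came to pass it and 1 reversed, Lama2 in Wt HFD against Wt CD, at -0.07 with all 12 libraries. The causes were not tested.

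With the replicate number as a block, 0 of the genes were called in each comparison, and the medians were -0.00, 0.26, 0.09, 0.03, -0.24 and -0.28 for ApoE KO HFD against Wt CD, Wt HFD against Wt CD, ApoE KO HFD against ApoE KO CD, ApoE KO CD against Wt CD, ApoE KO HFD against Wt HFD and the interaction. Over all genes, in that order, edgeR called 26, 35, 12, 86, 8 and 37, the block 14, 19, 9, 61, 7 and 27, DESeq2 204, 168, 20, 434, 28 and 92, no filter 296, 272, 26, 475, 49 and 105, all 12 libraries 0, 1, 1, 3, 1 and 8, and leaving out Wt CD replicate 2 called 1304, 1019, 14, 1801, 20 and 285. Only the groups compared gave 12, 9, 16, 38 and 24 for the first 5. A count of few reads limits Lox (75 over 11 libraries), Tcf21 (74), Loxl2 (130) and Timp1 (25).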
